A study of Drosophila melanogaster with 15 samples.

Results

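The serotonin receptor genes *5-HT1A*, *5-HT1B* and *5-HT2A* were followed in the RNA-seq libraries of OSCs, cultured somatic cells of the *Drosophila* ovary. They were taken from the table of read counts by their symbols, and are 3 of the 16727 genes listed. The fly has 5 serotonin receptor genes, and the other 2, *5-HT2B* and *5-HT7*, are given for comparison. The 3 genes were chosen by their names with their counts in these 9 libraries already known, so their levels and their differences between conditions are given as a description, with no test.

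OSCs were treated for 48 h with siRNA against EGFP (EGFP KD, the control), *l(3)mbt* (L(3)mbt KD) or *lint-O* (Lint-O KD), and 3 libraries of poly-A-selected RNA were sequenced per condition. L(3)mbt is a chromatin protein with MBT repeats that is known as a repressor of germline genes in somatic cells, and Lint-O was studied as its interactor. All 9 libraries come from 1 cultured cell type, both knockdowns are compared with the same 3 control libraries, and the labels do not say whether the libraries of a condition come from separate cultures. The *l(3)mbt* gene of these cells is known to carry a transposon insertion, and the cells make a long and a short form of the protein.

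Serotonin receptors are proteins of the plasma membrane that bind serotonin outside the cell and pass the signal on through G proteins. In the fly, 5-HT1A and 5-HT1B act through inhibitory G proteins and lower cAMP, 5-HT2A and 5-HT2B act through phospholipase C and calcium, and 5-HT7 raises cAMP. They are best known from neurons, where they take part in sleep, feeding, circadian behaviour and learning.

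The reads counted on genes ranged from 19139572 to 32274601 per library. The unit of level is CPM, a gene's count scaled to this total after TMM normalization, and CPM per kilobase of exon is used where genes are compared with each other. The detection floor used here is 3 counts, or 0.0958 to 0.158 CPM by library, and covers counting error only. In L(3)mbt KD, *l(3)mbt* was at 55.6% of control (log2 fold change -0.85, edgeR adjusted p = 5.75e-10, with 98 exon bases shared with *CG14260* on the opposite strand), and in Lint-O KD, *lint-O*, listed as *CG2662*, was at 16.9% of control (log2 fold change -2.56, edgeR adjusted p = 2.45e-15). The *l(3)mbt* mRNA was at 133% of control in Lint-O KD (log2 fold change 0.41, edgeR adjusted p = 4.11e-05). *lint-O* was at 114% of control in L(3)mbt KD (log2 fold change 0.19, edgeR adjusted p = 0.0483), not past an FDR of 0.01. The somatic ovary markers *tj*, *fs(1)Yb*, *piwi*, *Fas3* and *zfh1* were all expressed, with a summed level of 2321 to 2574 CPM per library. *Fas3* was higher in L(3)mbt KD than in control (log2 fold change 0.89, edgeR adjusted p = 6.93e-09) and than in Lint-O KD (0.70, edgeR adjusted p = 1.38e-06). No other of these markers passed an FDR of 0.01 in any comparison. The neuronal markers *Syt1* (at most 4 counts in any library), *brp* (at most 10), *VGlut* (at most 1) and *Cha* (at most 15) had few counts. The neuronal *nSyb* was low but detected in every library, with 6 to 18 counts. *elav*, with 1436 to 2496 counts, was the exception, and it shares 2994 exon bases with a noncoding gene on the same strand. The glial marker *repo* had at most 3 counts, and the hemocyte markers *Hml* and *NimC1* had at most 20 and 4. Reads assigned to no gene were 8.45% and 7.97% of the total in control replicates 1 and 2 but 2.76% in control replicate 3, which stands apart. Their share was 2.93% to 4.14% for L(3)mbt KD and 4.43% to 7.38% for Lint-O KD.

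*5-HT1A* and *5-HT1B* lie near each other in the genome, whereas *5-HT2A* lies on another chromosome. In dm6, *5-HT1B* (FBgn0263116) is at chr2R:19022325-19032642 on the minus strand and *5-HT1A* (FBgn0004168) at chr2R:19067155-19121958 on the plus strand, with 34512 bases between them. They point away from each other, so that the gap lies between their start sites. It holds the annotated genes *CG15115*, *CG15116* and *CG15109*. *5-HT2A* (FBgn0087012) is at chr3R:4612870-4633304 on the plus strand. The genes span 10.3 kb (*5-HT1B*), 54.8 kb (*5-HT1A*) and 20.4 kb (*5-HT2A*), of which 4026, 5019 and 5410 bases are exonic, with 3, 2 and 5 annotated transcripts. None of them shares exon bases with another annotated gene. *Ir56a* lies within the span of *5-HT1A*, and *CG43351* within that of *5-HT1B*, each on the opposite strand, and 8 annotated transposon insertions lie within the span of *5-HT2A*.

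All 3 receptor mRNAs were detected in every library of OSCs, with between 186 and 372 counts. *5-HT1A* had 232, 260 and 305 counts in the control libraries, or 10.5, 12.7 and 9.74 CPM. *5-HT1B* had 343, 301 and 372 counts in control, or 15.6, 14.7 and 11.9 CPM. *5-HT2A* had 204, 220 and 348 counts in control, or 9.27, 10.7 and 11.1 CPM. The third control library, the one with the low share of reads outside genes, was thus the lowest of the control libraries for *5-HT1A* and *5-HT1B* and the highest for *5-HT2A*. At these depths, counting error alone is from 5.18% to 7.33% of a gene's count in a library.

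Per kilobase of exon, *5-HT1B* was the most abundant of the 3 receptors in control, with 3.49 ± 0.48 CPM per kilobase (SD, n = 3). *5-HT1A* followed with 2.19 ± 0.30 CPM per kilobase (SD, n = 3) and *5-HT2A* with 1.92 ± 0.18 (SD, n = 3). The control libraries of *5-HT1B* lay above those of both other receptors, while *5-HT1A* and *5-HT2A* did not differ beyond their spread. All 3 were low for expressed genes. Of the 8676 genes that were tested and had an exon length, 24.8% had a lower level per kilobase in control than *5-HT1B*, 21.7% than *5-HT1A* and 20.8% than *5-HT2A*. The median of these genes was 16.4 CPM per kilobase. The exon length pools all annotated transcripts, and which of them OSCs use was not analysed here.

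The other serotonin receptors were hardly detected. *5-HT2B* (chr3R:8578205-8629996) had 2 counts in control replicate 2, 1 count in L(3)mbt KD replicate 2 and 3 counts in Lint-O KD replicate 1, and 0 counts in the rest. *5-HT7* (chr3R:30968236-31016875) had 4 counts in Lint-O KD replicate 2 and 0 counts in the other libraries. Hence OSCs had reads in number for both receptors of the inhibitory type and 1 of the pair that acts through phospholipase C, and at most the floor, or 1 count above it, for *5-HT2B* and *5-HT7*.

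Receptors for other amines and for acetylcholine were low or undetected as well. Of 15 such genes, which bind dopamine, octopamine, tyramine or acetylcholine, 8 had at most 3 counts in any library: *Dop1R1*, *Dop1R2*, *Dop2R*, *Oamb*, *Octbeta1R*, *TyrR*, *TyrRII* and *mAChR-C*, the last listed as *CG12796*. None reached 1 CPM in every library, and only 4 had enough reads to be tested. The highest of them per kilobase, the octopamine-tyramine receptor *Oct-TyrR* in L(3)mbt KD, was at 0.744 ± 0.078 CPM per kilobase (SD, n = 3), compared with 1.69 ± 0.12 (SD, n = 3) for *5-HT2A*, the lowest of the 3 serotonin receptors in that condition. The plot of levels per kilobase shows *5-HT1A*, *5-HT1B* and *5-HT2A* apart from every other receptor of the list in all 3 conditions.

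**Figure D1:**
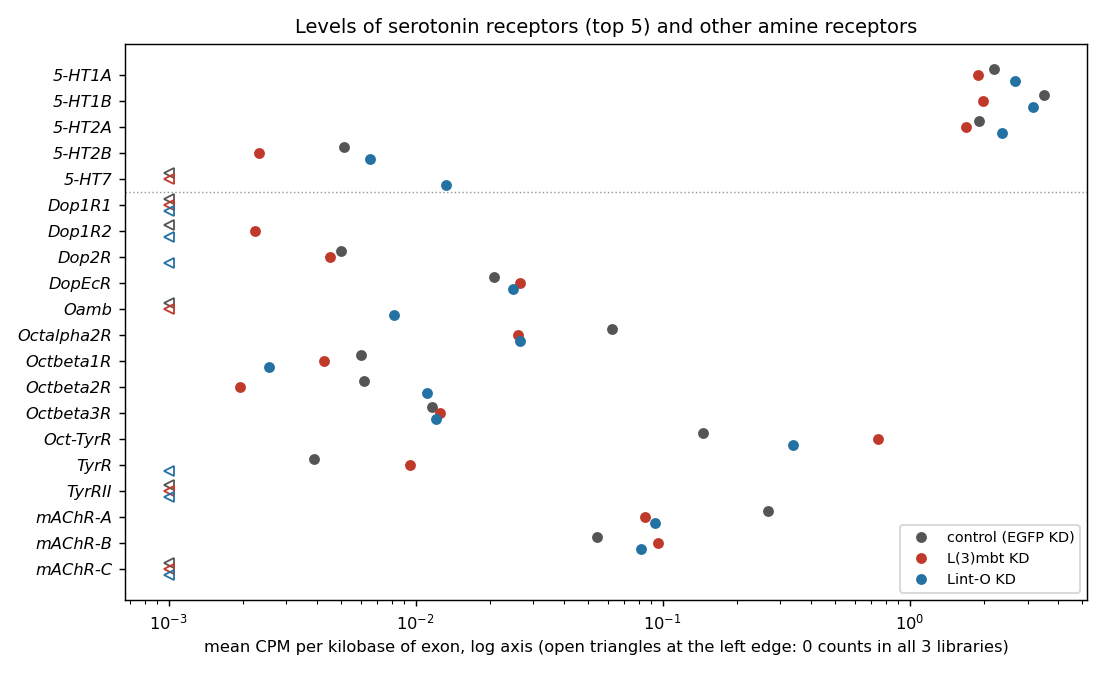
Mean level of each serotonin receptor (top 5 lines) and of 15 receptors for other amines or acetylcholine, in CPM per kilobase of exon on a log axis, with 1 point per condition (mean of 3 libraries). Open triangles at the left edge stand for 0 counts in all 3 libraries. *5-HT1A*, *5-HT1B* and *5-HT2A* lie between 1.69 and 3.49, and the next receptor, *Oct-TyrR* in L(3)mbt KD, at 0.744.

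The first comparison asks how the receptors stood after depletion of L(3)mbt. *5-HT1B* had 206, 186 and 228 counts in L(3)mbt KD, or 7.88, 8.18 and 7.88 CPM. The mean was 14.0 ± 1.93 CPM for control and 7.98 ± 0.18 CPM for L(3)mbt KD (SD, n = 3 each), which is 57.1% of control (log2 fold change -0.81, standard error 0.11). Every L(3)mbt KD library was below every control library, and the 3 are the lowest of all 9. All 3 libraries were below all 3 of control for 26.8% of the 8726 genes tested in this comparison. Of all genes tested, 1.70% had a lower log2 fold change than *5-HT1B*, and 83.3% had a smaller one in absolute size. The L(3)mbt KD libraries differed among themselves by less than counting error (a coefficient of variation of 2.21%), whereas those of control varied by 13.7%.

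*5-HT1A* had 210, 206 and 328 counts in L(3)mbt KD, or 8.03, 9.06 and 11.3 CPM. With means of 9.47 ± 1.69 CPM after the knockdown and 11.0 ± 1.51 CPM for control (SD, n = 3 each), the log2 fold change was -0.20 (standard error 0.13), and the groups overlapped. The third L(3)mbt KD library was higher than control replicates 1 and 3, and without it the log2 fold change of *5-HT1A* was -0.38.

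*5-HT2A* had 237, 194 and 283 counts in L(3)mbt KD, or 9.06, 8.53 and 9.78 CPM. Its means were 9.12 ± 0.62 CPM after the knockdown and 10.4 ± 0.97 CPM for control (SD, n = 3 each), with a log2 fold change of -0.19 (standard error 0.11). The groups overlapped by 1 library on each side, since control replicate 1 was lower than L(3)mbt KD replicate 3. Against the median log2 fold change of all genes tested, which was -0.02, all 3 receptors were on the lower side, and the libraries were without overlap for *5-HT1B* alone. Of the genes tested, 24.1% had a lower log2 fold change than *5-HT1A* and 26.0% than *5-HT2A*. In this bulk RNA, fewer cells with a transcript and less of it per cell cannot be told apart.

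The control libraries weigh on the size of these values. Without control replicate 3, the library with few reads outside genes, the log2 fold change of *5-HT1B* in L(3)mbt KD was -0.95. With the share of reads outside genes as a covariate, chosen after seeing the data, it was -0.66, and that of *5-HT1A* was -0.04. The sign was the same in all 18 alternatives for each of the 3 receptors.

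The second comparison asks the same of Lint-O KD. *5-HT2A* had 316, 267 and 255 counts in Lint-O KD, or 13.1, 11.9 and 13.4 CPM. The mean was 12.8 ± 0.78 CPM in Lint-O KD and 10.4 ± 0.97 CPM in control (SD, n = 3 each), 123% of control (log2 fold change 0.30, standard error 0.10). All 3 Lint-O KD libraries were above all 3 control libraries, as was the case for 26.6% of the genes tested in this comparison. The nearest libraries, control replicate 3 and Lint-O KD replicate 2, were 11.1 and 11.9 CPM.

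*5-HT1A* had 320, 331 and 230 counts in Lint-O KD, or 13.2, 14.8 and 12.1 CPM, and a mean of 13.4 ± 1.35 CPM (SD, n = 3). The log2 fold change against control was 0.29 (standard error 0.13), and control replicate 2 (12.7 CPM) was above the lowest Lint-O KD library. *5-HT1B* had 295, 295 and 242 counts in Lint-O KD, or 12.2, 13.2 and 12.7 CPM, with a mean of 12.7 ± 0.50 CPM (SD, n = 3). Its log2 fold change was -0.14 (standard error 0.11), and the Lint-O KD libraries lay within the range of control, from 11.9 to 15.6 CPM. It was -0.28 without control replicate 3 and -0.08 without control replicate 1, so that the value rests on which control libraries are used. The all-gene median in this comparison was 0.01. In absolute size, 70.7%, 43.9% and 71.1% of the genes tested had a smaller log2 fold change than *5-HT1A*, *5-HT1B* and *5-HT2A*.

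**Figure D2:**
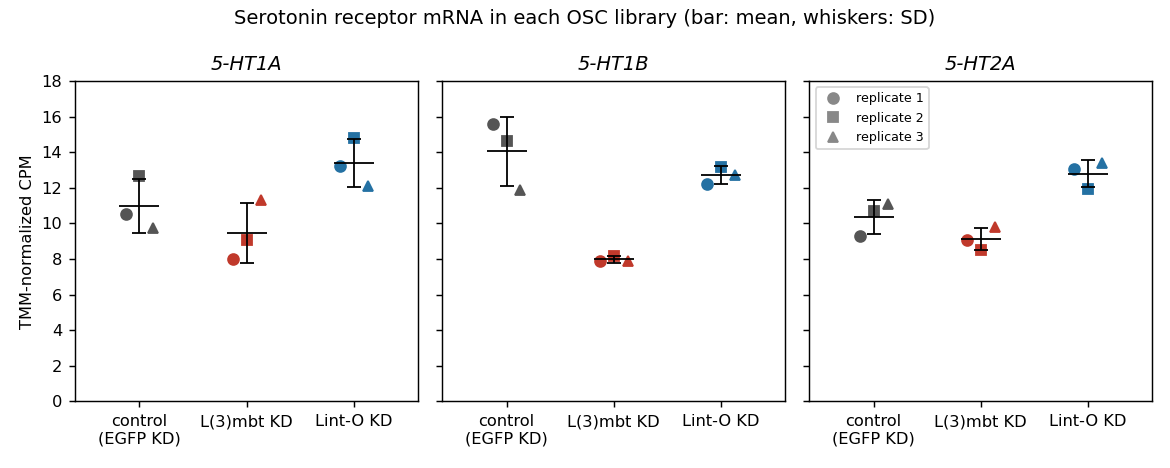
Level of *5-HT1A*, *5-HT1B* and *5-HT2A* in each of the 9 libraries, in TMM-normalized CPM on a linear axis from 0. Points are libraries, with the replicate number of the labels as the marker, bars are means and whiskers SD (n = 3). *5-HT1B* in L(3)mbt KD, from 7.88 to 8.18 CPM, lies below all other libraries of that gene, and in each panel the 3 L(3)mbt KD libraries lie below the 3 Lint-O KD libraries.

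The third comparison sets the knockdowns against each other. The control libraries are not part of the difference, but they share the normalization and the fit that gives its standard error. The paper reports that Lint-O protein was barely detected after depletion of its partner, whereas the partner protein changed little after depletion of Lint-O. The knockdowns are thus not separate depletions. Which of the proteins a difference between them goes with was not tested. All 3 receptors were lower in L(3)mbt KD than in Lint-O KD, and for each of them the libraries did not overlap. The log2 fold change was -0.49 for *5-HT1A* (standard error 0.13, 71.0% of Lint-O KD), -0.67 for *5-HT1B* (0.11, 62.8%) and -0.48 for *5-HT2A* (0.11, 71.5%). Of the 8726 genes tested, 20.4% had all 3 L(3)mbt KD libraries below all 3 Lint-O KD libraries and 22% had them all above. A lower log2 fold change than that of *5-HT1A*, *5-HT1B* and *5-HT2A* was found for 4.27%, 2.44% and 4.49%. In absolute size, the log2 fold change was smaller for 85.8%, 90.2% and 85.4%. The closest libraries were those of *5-HT1A*, at 11.3 CPM in L(3)mbt KD replicate 3 and 12.1 CPM in Lint-O KD replicate 3.

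The order of the receptors per kilobase was that of control in both knockdowns, but the overlap between them differed. In L(3)mbt KD, *5-HT1B* was at 1.98 ± 0.04, *5-HT1A* at 1.89 ± 0.34 and *5-HT2A* at 1.69 ± 0.12 CPM per kilobase (SD, n = 3 each). There, *5-HT1A* overlapped with both others, while every library of *5-HT1B* was above those of *5-HT2A*. In Lint-O KD, *5-HT1B* was first, at 3.16 ± 0.12 CPM per kilobase, before *5-HT1A* at 2.66 ± 0.27 and *5-HT2A* at 2.37 ± 0.14 (SD, n = 3 each), and only the last 2 overlapped. Over the 9 libraries, the highest level was 1.98 times the lowest for *5-HT1B*, 1.84 times for *5-HT1A* and 1.57 times for *5-HT2A*.

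The receptors followed one another only in part. Over the 9 libraries, the log2 CPM of *5-HT1A* correlated with that of *5-HT2A* with a Pearson r of 0.73 (Spearman rho 0.75). For *5-HT1A* and the nearby *5-HT1B*, r was 0.60 (rho 0.58), and for *5-HT1B* and *5-HT2A* it was 0.51 (rho 0.37). These values are descriptions, since the libraries share 3 conditions and each gene's count its library's depth. Ranked by r with *5-HT1A*, *5-HT2A* came at place 248 and *5-HT1B* at place 705 of 8725 genes.

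The genes with the most similar pattern differed between the receptors. For *5-HT1A* they were *CG15864* (r = 0.967, 9 libraries), *CG15236* (0.942), *CG1902* (0.939), *CG10171* (0.921) and *CG6583* (0.906). The closest to *5-HT1B* were *oys*, a lysophospholipid acyltransferase (r = 0.993), *Ehbp1*, an adaptor of membrane traffic (0.992), the FGF ligand *ths* (0.986), *CG8034* (0.986) and *CG14441* (0.985). *5-HT2A* was most like *CG5104* (0.980), *CG2277* (0.967), *CG11986* (0.964), *Nmdmc*, an enzyme of folate metabolism (0.957), and *beta4GalT7*, a galactosyltransferase of glycosaminoglycan synthesis (0.951). An r above 0.9 was reached by 190 genes for *5-HT1B*, 17 for *5-HT2A* and 8 for *5-HT1A*. The level of *ths*, for example, was 56.1 ± 11.6 CPM for control, 29.1 ± 1.21 CPM for L(3)mbt KD and 50.6 ± 4.11 CPM for Lint-O KD (SD, n = 3 each), an order of conditions like that of *5-HT1B*. With Spearman's correlation instead, 2, 1 and 3 of the 5 genes of *5-HT1A*, *5-HT1B* and *5-HT2A* were named again.

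Most of the genes around the receptors had few reads or did not pass the test. Of the 5 annotated genes on each side of each receptor, 24 in all without the receptors, 10 had at most 3 counts in any library, and 13 were tested. In L(3)mbt KD, 3 of them were higher and 1 lower at an FDR of 0.01, against 22.6% and 15.9% of all genes tested (38.6% in either direction). The 3 that were higher flank *5-HT1A* and *5-HT1B*, and no tested neighbour of *5-HT2A* passed the threshold in either knockdown. Within the spans of *5-HT1A* and *5-HT1B*, *Ir56a* and *CG43351* had 0 counts in all 9 libraries.

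*CG15115* lies 2849 bases upstream of the start of *5-HT1B*, on the same strand. Its counts were 35, 30 and 38 for control, 134, 126 and 112 for L(3)mbt KD and 75, 60 and 50 for Lint-O KD. It was thus higher in L(3)mbt KD, where *5-HT1B* was lower (log2 fold change 1.78 ± 0.20 SE, edgeR adjusted p = 1.22e-07). It was also higher in Lint-O KD (log2 fold change 1.00 ± 0.21 SE, edgeR adjusted p = 0.000809, which became 0.0108 without control replicate 3).

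*CG15117*, 272 bases beyond the end of *5-HT1A* and on the opposite strand, was counted 207, 222 and 354 times for control, 789, 629 and 857 times for L(3)mbt KD and 309, 304 and 250 times for Lint-O KD. Its log2 fold change was 1.47 in L(3)mbt KD (standard error 0.09, edgeR adjusted p = 3.78e-12), compared with -0.20 for *5-HT1A*. In Lint-O KD it was 0.32 (standard error 0.09, edgeR adjusted p = 0.00987), a call lost in 15 of 18 alternatives, among them each library left out in turn (adjusted p up to 0.0677, without control replicate 1).

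*CG18605*, 43045 bases from *5-HT1B*, rose in L(3)mbt KD (log2 fold change 0.97, edgeR adjusted p = 7.1e-07) and in Lint-O KD (0.52, edgeR adjusted p = 0.00255, lost without control replicates 1 or 2 or Lint-O KD replicates 1 or 3, at up to 0.0227). *CG15118*, 11768 bases beyond *5-HT1A*, fell in L(3)mbt KD (log2 fold change -0.28, edgeR adjusted p = 0.000535). In Lint-O KD, 3 of the 13 were higher and 0 lower by edgeR (all genes: 16.8% and 7.58%), with 2 lower at an unadjusted p under 0.05 and 0 by DESeq2. The count of 3 became 1 on leaving out any one of control replicates 1, 2 and 3 and Lint-O KD replicates 1 and 3. The nearest genes to *5-HT2A*, the noncoding *CR44317* (13120 bases to the left) and *CR45673* (1670 bases to the right), had at most 135 and 4 counts. The former had a log2 fold change of 0.37 in L(3)mbt KD and did not pass the threshold (edgeR adjusted p = 0.393). To the left of *5-HT1A*, *CG15109* had 0 counts throughout. To the left of *5-HT1B*, *tn* (13380 bases away) had at most 3 counts, and the snoRNA gene *snoRNA:abba-a* within its span had 0.

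**Figure D3:**
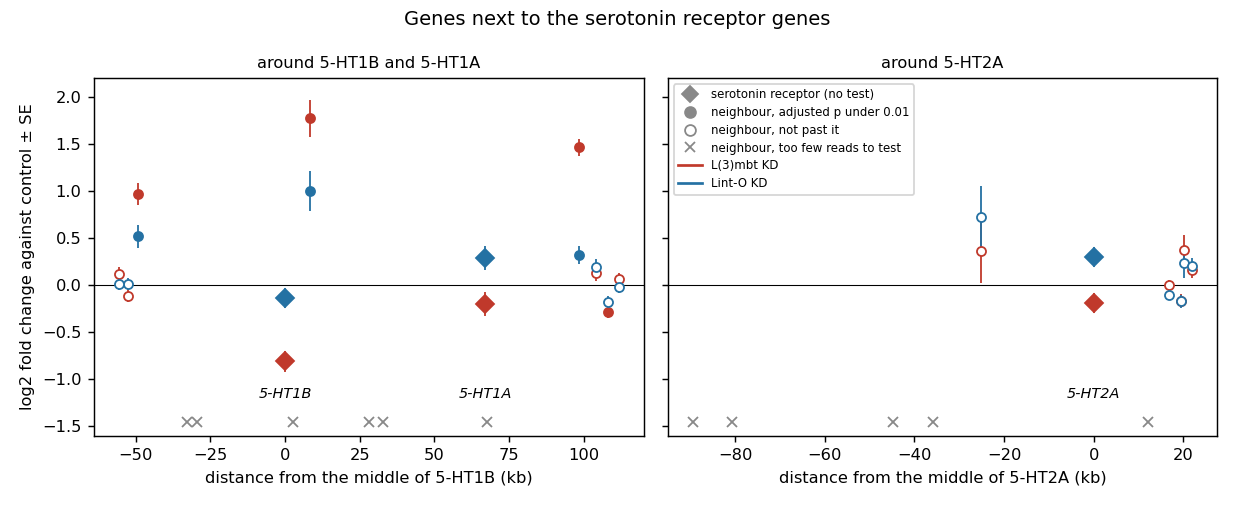
Log2 fold change against control of the receptors (diamonds, no test) and of the 5 annotated genes on each side (circles, filled where the edgeR adjusted p was under 0.01), by distance in kb from the middle of *5-HT1B* (left) or *5-HT2A* (right). Whiskers are standard errors and crosses are genes with too few reads to test. In L(3)mbt KD, the neighbours called higher, *CG15115* (1.78), *CG15117* (1.47) and *CG18605* (0.97), lie above 0. *CG15118* (-0.28), the neighbour called lower, lies below 0, as do *5-HT1B* (-0.81) and *5-HT1A* (-0.20, with groups that overlapped).

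Whether OSCs express the genes that make, store and clear serotonin was read from 13 genes. The enzyme of the first step, the neuronal tryptophan hydroxylase (listed as *Trh*), had at most 7 counts in any library, as had *Hn*, the phenylalanine hydroxylase that can also act on tryptophan. The serotonin transporter *SerT* had at most 10, the vesicular transporter *Vmat* at most 19 and its relative *prt* at most 2. In control and L(3)mbt KD, *Hn* had 1, 0 and 0 against 7, 5 and 7 counts. *SerT* had 4, 1 and 0 against 10, 6 and 7, whereas *Vmat* had 5, 8 and 19 against 1, 2 and 0. These genes had too few reads to be tested in the main fit. The last step was expressed. *Ddc*, the decarboxylase shared by serotonin and dopamine synthesis, was counted 113, 85 and 156 times for control, 1076, 960 and 1192 times for L(3)mbt KD and 498, 439 and 379 times for Lint-O KD. From 4.75 ± 0.54 CPM it rose to 41.5 ± 0.62 CPM after depletion of L(3)mbt (SD, n = 3 each, log2 fold change 3.12 ± 0.09 SE, edgeR adjusted p = 9.67e-18), and its log2 fold change was 2.07 ± 0.09 SE in Lint-O KD (edgeR adjusted p = 5.05e-14). Of the supply genes named, *Vmat* (2129 exon bases), *Dhpr* (193), *Dat* (95), *Trh* (89), *Ddc* (88) and *Pcd* (68) share exon bases with a gene on the opposite strand. If the counting did not use strand, reads on these bases may be missing from the counts, set aside as ambiguous between genes.

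Of these 13 genes, 7 were tested. In L(3)mbt KD, 4 were higher and 0 lower by edgeR (all genes: 22.6% and 15.9%), with a median log2 fold change of 0.30 over the 7. At an unadjusted p under 0.05, 0 were lower, while DESeq2, which also tested genes of fewer reads, called 1 lower, *Vmat*. Besides *Ddc* they were *Pu*, the GTP cyclohydrolase that begins the synthesis of the hydroxylases' cofactor (log2 fold change 1.08), *Dat*, an arylalkylamine N-acetyltransferase that can inactivate amines (1.02), and *Dhpr*, which recycles the cofactor (0.30, lost with the share of reads outside genes as a covariate). In Lint-O KD, 4 were higher and 0 lower by edgeR (all genes: 16.8% and 7.58%), 0 were lower also at an unadjusted p under 0.05 and by DESeq2, and the median was 0.34. They were *Ddc*, *Dat* (0.82), *Pu* (0.70) and *Pcd*, another gene of cofactor recycling (0.34). The calls of *Dat* and *Pcd* in Lint-O KD rest on single libraries. That of *Dat* was lost without control replicates 1 or 2 or Lint-O KD replicate 2 (edgeR adjusted p up to 0.0463) and that of *Pcd* without control replicate 2 or Lint-O KD replicate 3 (up to 0.0181). With control replicate 2 left out, the count was 2. Between the knockdowns, 2 of the 7 were higher in L(3)mbt KD, *Ddc* and *Pu* (all genes: 9.24% higher and 6.83% lower), and 1 was with L(3)mbt KD replicates 1 or 3 or Lint-O KD replicates 1 or 2 left out.

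Genes for G proteins and effectors of the kinds that these receptors act through had reads in OSCs. Of 28 such genes, from G protein subunits to adenylyl cyclases, phospholipases, kinases and regulators, all passed the filter on low counts, and 26 had at least 1 CPM in every library. In L(3)mbt KD, 11 of the 28 were higher and 2 lower (median log2 fold change 0.18, all genes: 22.6% and 15.9%). In Lint-O KD, 9 were higher and 0 lower by edgeR (median 0.13, all genes: 16.8% and 7.58%), with 5 lower at an unadjusted p under 0.05 and 2 by DESeq2. Between the knockdowns, 4 were higher and 3 lower in L(3)mbt KD (all genes: 9.24% and 6.83%). That count of 7 was from 1 to 8 with a library left out, the lowest without L(3)mbt KD replicate 1, 2 without Lint-O KD replicates 1 or 2, 3 without Lint-O KD replicate 3 and 4 without L(3)mbt KD replicate 2.

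The alpha subunits were named for their coupling after their values were known. *Galphai* and *Galphao*, subunits of the inhibitory class used by 5-HT1A and 5-HT1B, had log2 fold changes in L(3)mbt KD of 0.23 (edgeR adjusted p = 0.000794) and 0.26 (edgeR adjusted p = 0.00667, lost in 8 of 18 alternatives, at up to 0.0874 without control replicate 3). In Lint-O KD they were 0.03 and 0.00, and neither passed the threshold. *Galphaq*, which acts with 5-HT2A on phospholipase C, had -0.49 in L(3)mbt KD and 0.02 in Lint-O KD, past the threshold in neither, and shares 3050 exon bases with *CG45086* on the same strand.

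The genes of this set with the largest changes, *Gbeta5*, *rut* and *Dhit*, were low in control, at 4.29, 2.62 and 0.859 CPM. This does not hold for all genes named below, since *Ac3* was at 38.7 CPM in control. *Gbeta5*, the G protein beta subunit that pairs with RGS proteins, was counted 80, 94 and 146 times for control, 755, 531 and 687 times for L(3)mbt KD and 411, 356 and 390 times for Lint-O KD, with log2 fold changes of 2.55 and 2.04 (edgeR adjusted p = 3.3e-13 and 4.09e-11). Its partner *RSG7* had at most 17 counts in control, with 1.26 (edgeR adjusted p = 0.000938, 0.0107 without control replicate 3) and 1.07 (edgeR adjusted p = 0.00758, lost in 9 of 18 alternatives, at up to 0.0571 without Lint-O KD replicate 2). Of the adenylyl cyclases, which make the cAMP that 5-HT1A and 5-HT1B lower, *rut* rose in both knockdowns (log2 fold changes 1.93 and 1.48), as did *Ac3* (0.67 and 0.85), while *Ac78C* passed the threshold in Lint-O KD (1.24, with 0.48 in L(3)mbt KD). The other cyclases of the set, *Ac13E* (0.14 and 0.21) and *Ac76E* (-0.14 and 0.15), passed it in neither knockdown. *Ac13E* shares 347 exon bases with *Gmap* on the opposite strand. Of the phospholipase C pathway used by 5-HT2A, *norpA* rose in both (1.05 and 1.22), and the protein kinase C gene *Pkc53E* (1.06) passed the threshold in L(3)mbt KD, where its value in Lint-O KD was 0.43 (edgeR adjusted p = 0.0547). *Dhit*, an RGS protein gene, rose in L(3)mbt KD (1.83, with 0.23 in Lint-O KD). *loco* (-0.31), another RGS gene, and the cAMP phosphodiesterase gene *dnc* (-0.25, lost in 12 of 18 alternatives, at up to 0.0343 with a library left out) were the 2 that fell in L(3)mbt KD. *Dhit*, *loco* and *rut* share 2771, 1032 and 420 exon bases with a noncoding gene on the opposite strand.

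**Figure D4:**
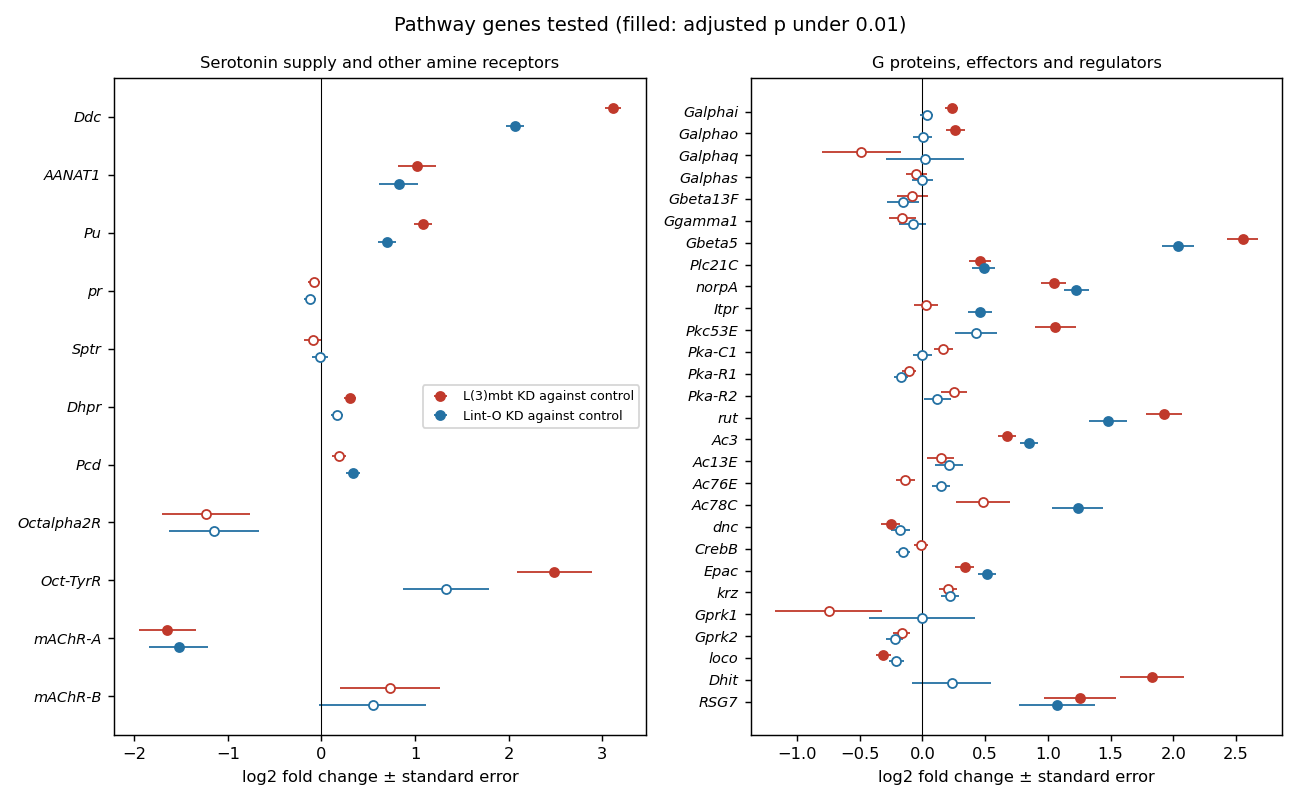
Log2 fold change against control (points) with its standard error (whiskers) for the tested genes of serotonin supply and the other amine and acetylcholine receptors (left) and for the 28 genes of G protein signalling (right). Filled points had an edgeR adjusted p under 0.01. *Ddc* (3.12 and 2.07) leads the left panel and *Gbeta5* (2.55 and 2.04) and *rut* (1.93 and 1.48) the right one in both knockdowns. *AANAT1* is listed as *Dat* in the counts, and *Itpr* as *Itp-r83A*.

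Among the other receptors, the 4 tested gave 1 higher and 1 lower in L(3)mbt KD by edgeR, where 38.6% of all genes were called in either direction. In Lint-O KD, where that share was 24.4%, they gave 0 higher and 1 lower by edgeR, and 1 was higher at an unadjusted p under 0.05 and 0 by DESeq2. *Oct-TyrR* was counted 14, 18 and 3 times for control, 74, 55 and 86 times for L(3)mbt KD and 21, 30 and 29 times for Lint-O KD. It rose in L(3)mbt KD (log2 fold change 2.49 ± 0.40 SE, edgeR adjusted p = 6.93e-05). That size rests on control replicate 3, with 3 counts, since it was 1.83 without that library, and it was 3.11 with the share of reads outside genes as a covariate. *mAChR-A*, a muscarinic acetylcholine receptor that shares 111 exon bases with *CG13578* on the opposite strand, fell from 29, 31 and 48 counts in control to 16, 8 and 12 in L(3)mbt KD (log2 fold change -1.65 ± 0.31 SE, edgeR adjusted p = 0.000117) and 11, 13 and 9 in Lint-O KD (-1.53 ± 0.31 SE, edgeR adjusted p = 0.000555). At these counts both stayed below the 3 serotonin receptors per kilobase in every condition.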

How the data were processed

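RNA-seq of OSCs was analysed in 9 libraries, 3 per condition, assigned by their labels. The table that the authors deposited holds raw counts per gene, with no normalization. Per the paper's methods, reads on rRNAs had been removed and the rest mapped to dm6 with HISAT2. The submitters' processing notes name HTSeq, and the annotation and strand setting of the counting are not given in the sources used here, so reads of genes that share exons may not be told apart. This is noted for the pathway genes named. Among the markers, *piwi*, *zfh1*, *elav*, *VGlut*, *Cha* and *repo* also share at least 39 exon bases with another gene. Rows of reads on no feature (2.76% to 8.45%) or ambiguous between genes (1.47% to 1.61%) were left out of library sizes and tests.

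Of 16727 genes, 16520 (98.8%) were matched to the Ensembl annotation of the same assembly, 12511 by their current symbol and the others by an older symbol, synonym or locus tag, which gave coordinates and exon lengths. Tests were run with edgeR 4.0.16 in R 4.3.3 (filterByExpr, TMM, robust glmQLFit and glmQLFTest over all 9 libraries, with no block), and p-values were adjusted by Benjamini-Hochberg over 8726 genes, with the study's FDR threshold of 0.01 (the study itself used DESeq2). The fit was checked on simulated counts. Standard errors come from the same fit. Similarity is the correlation of log2 CPM with a prior count of 2.

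The 3 receptors and all gene lists were chosen with earlier results of these data known. The genes named are the receptors, list genes past the threshold (at most 8 per list, by size), those at 3 counts or fewer, the 5 most similar genes, the nearest neighbours (genes ordered by start) and neighbours past the threshold. *Galphai*, *Galphao*, *Galphaq*, *Ac13E*, *Ac76E*, *loco* and *dnc* were added outside this rule. Alternatives were DESeq2 1.42.0, its size factors, library totals alone, no filter or a mean of at least 10 counts, an FDR of 0.05, a fit of only 2 conditions at a time, a replicate block and each library left out. A covariate for reads outside genes and a fit without robust shrinkage were added after seeing the data. Within a condition, libraries differed by more than sampling noise. With 3 libraries against 3, an exact two-sided permutation p cannot go below 0.1 for a single gene, so that p-values borrow the spread from other genes, and they measure only the spread between these libraries. ChIP-seq was not analysed here.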

Additional observations from a re-analysis of the deposited data

How the results depend on the processing

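None of the log2 fold changes of *5-HT1A*, *5-HT1B* and *5-HT2A* changed sign in the 18 alternatives. With the share of reads outside genes as a covariate, that of *5-HT1B* moved by more than the spread between replicates, to -0.66 in L(3)mbt KD against control and -0.54 against Lint-O KD. This covariate also gave 5 neighbours called in Lint-O KD and 1 between the knockdowns, 3 signalling genes called between the knockdowns, and 2 and 1 of the other receptors called in Lint-O KD and between the knockdowns. The cause was not tested. With 10 neighbours on each side, 28 neighbours were tested, and 13, 7 and 8 were called in L(3)mbt KD, in Lint-O KD and between the knockdowns. The shares of all genes called there were 38.6%, 24.4% and 16.1%. At an FDR of 0.05, 14 signalling genes and 2 of the other receptors were called in Lint-O KD, and 1 of the other receptors and 2280 of all genes between the knockdowns. Without the filter on low counts, 2 of the other receptors were called in Lint-O KD and 1 between the knockdowns, as was 1 with only the 2 conditions compared. For serotonin supply in L(3)mbt KD, 6 genes were called without that filter, against 4 in the main fit. With a library left out, the counts between the knockdowns were 907 to 1646 for all genes (main 1402), 1 to 2 for serotonin supply, 1 to 8 for signalling, 0 to 1 for the other receptors and 1 to 3 for neighbours, and in Lint-O KD 2 to 4 for serotonin supply, 1 to 2 for the other receptors and 1 to 2 for neighbours. On coding length, control levels were 4.33 (*5-HT1A*), 7.44 (*5-HT1B*) and 3.72 (*5-HT2A*) CPM per kilobase.

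Deviations from the condition means were hardly shared by same-numbered libraries (correlations from -0.2 to 0.148), so the replicate numbers were not taken as a pairing. With the replicate number as a block, the log2 fold change of *5-HT1B* in L(3)mbt KD was -0.80, 3578, 2258 and 1485 of all genes were called in L(3)mbt KD, in Lint-O KD and between the knockdowns, and 1 gene of serotonin supply was called between the knockdowns.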
